A study of Mus musculus with 4 samples.

Results

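The 10 genes described here encode parts of the circadian clock: the period genes Per1, Per2 and Per3, the cryptochrome genes Cry1 and Cry2, the nuclear receptor genes Nr1d1 and Nr1d2, the transcription factor genes Dbp and Tef, and Clock itself. They were taken by symbol from the array's annotation, which gave 18 probe sets for all 10 genes out of 22690 probe sets on the array. Where a gene had several, the one with the greatest mean log2 signal over the 4 arrays stood for it, as for all 12393 genes tested. RNA came from sorted living cells of back skin of K14-GFP-actin mice taken 49 days after birth, in the resting phase of the hair cycle (telogen). The 2 bulge basal samples held GFP cells with high surface α6 integrin and high CD34, which selects the basal layer of the bulge, where hair follicle stem cells reside. The 2 total epidermis samples held all living GFP-expressing cells, and bulge cells were not removed from them. In all samples the GFP and actin fusion was driven by the keratin 14 promoter, an epidermal promoter strongest in the basal layer, which limits the sort to cells that carry the reporter. No label says whether the replicates came from separate mice, so the p-values cover the spread among these 4 samples alone, which could be technical. No label used here gives the time of day at which skin was taken.

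In the mammalian clock, CLOCK pairs with BMAL1 (gene Arntl) and activates genes that carry E-box motifs, including the Per, Cry and Nr1d genes and Dbp. PER and CRY proteins return to the nucleus and inhibit that pair, while the NR1D proteins (REV-ERB) repress Arntl through ROR elements, which closes a further loop. DBP, TEF and their relative HLF activate genes with D-box motifs, among them Per genes, and NFIL3 represses at the same motif. Epidermal and hair follicle keratinocytes of mouse skin have such a clock, and the level of most of these transcripts changes over the day.

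The sequences in front of the gene starts are shown because these genes are tied to each other through E-box and D-box motifs. RefSeq windows (GRCm38.p6) from 250 bases before to 50 bases after the start were found for 9 of the 10 genes, in 13 windows, Per2 being the gene without one. They were searched on both strands for the E-box CACGTG, the D-box as TTATGTAA or TTATGCAA, the ROR element core TAGGTCA and the cAMP response element TGACGTCA. An E-box was present in windows of 3 of the 9 genes (Per1, Cry1 and Tef) and a D-box in those of 2 (Per1 and Per3), while 0 held either other motif. Among all 27025 genes with such windows, 8.09% held the E-box, 1.98% the D-box, 2.97% the ROR core and 2.03% the cAMP response element. The CACGTG and TTATGTAA or TTATGCAA letters do not overlap each other in these windows. The 250 bases before the start follow for the windows with a match, 5′ to 3′ on the gene's strand, with matches in capitals. Per1 is on chr11:69098699-69098948 (plus strand), with an E-box that starts 166 bases and a D-box that starts 24 bases before that start. The window of a further annotated Per1 start held no match. Per3 is on chr4:151044666-151044915 (minus strand), with 2 D-boxes that start 205 and 158 bases before the gene start. Cry1 is on chr10:85185055-85185304 (minus strand), with an E-box 60 bases before. Tef has 2 annotated starts, on chr15:81802423-81802672 and chr15:81811164-81811413 (plus strand), with E-boxes 127 and 138 bases before.
Per1: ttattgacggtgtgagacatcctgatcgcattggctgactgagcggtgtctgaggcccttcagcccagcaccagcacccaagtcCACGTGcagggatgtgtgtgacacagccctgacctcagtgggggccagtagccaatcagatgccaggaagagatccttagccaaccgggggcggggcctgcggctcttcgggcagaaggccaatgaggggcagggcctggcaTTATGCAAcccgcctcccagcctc
Per3: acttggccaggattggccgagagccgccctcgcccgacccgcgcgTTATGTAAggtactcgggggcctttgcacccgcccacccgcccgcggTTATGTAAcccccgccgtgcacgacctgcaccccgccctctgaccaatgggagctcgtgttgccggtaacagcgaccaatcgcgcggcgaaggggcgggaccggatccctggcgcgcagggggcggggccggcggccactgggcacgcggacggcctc
Cry1: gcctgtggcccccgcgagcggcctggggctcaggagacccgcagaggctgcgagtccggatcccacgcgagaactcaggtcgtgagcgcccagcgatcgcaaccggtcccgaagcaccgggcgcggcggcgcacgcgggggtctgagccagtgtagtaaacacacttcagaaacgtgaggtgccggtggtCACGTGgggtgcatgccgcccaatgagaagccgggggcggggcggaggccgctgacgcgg
Tef, first start: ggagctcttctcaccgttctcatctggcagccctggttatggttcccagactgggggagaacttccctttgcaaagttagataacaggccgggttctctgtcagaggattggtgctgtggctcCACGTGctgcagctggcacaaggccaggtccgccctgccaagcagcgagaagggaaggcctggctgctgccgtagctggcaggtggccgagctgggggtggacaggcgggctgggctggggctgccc
Tef, second start: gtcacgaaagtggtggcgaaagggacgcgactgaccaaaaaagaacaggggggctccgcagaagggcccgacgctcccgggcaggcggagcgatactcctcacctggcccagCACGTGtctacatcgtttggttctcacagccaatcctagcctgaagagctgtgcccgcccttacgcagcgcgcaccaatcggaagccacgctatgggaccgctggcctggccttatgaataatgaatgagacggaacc
A match is a description of the letters only, and a window without one says nothing about binding elsewhere near the gene.

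Signals are the authors' summarised probe set intensities, here as log2, and every difference is bulge basal minus total epidermis on that scale. Array medians lay between 123.6 and 145.0 signal units. A background level was set at a log2 signal of 7.23, the 95th percentile over 67 olfactory, vomeronasal and taste receptor genes, and 53.8% to 56.1% of genes lay above it on an array. Cd34, one gene of the gate, had log2 signals of 13.94 and 13.78 in bulge basal cells, against 9.72 and 10.16 in total epidermis. Itga6, the α6 integrin gene, had 11.69 and 10.73 in bulge basal cells and 12.46 and 11.77 in total epidermis, and was not higher in the gated cells. All 7 bulge markers had both bulge basal arrays above both total epidermis arrays, against 18.0% of all genes. For Krt15 the margin was narrow, with 14.84 and 14.53 in bulge basal cells and 14.18 and 14.49 in total epidermis.

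None of the 10 clock genes passed the limma test of bulge basal cells against total epidermis after adjustment over all genes, which does not show that their levels were equal. The limma fit called 0 of 12393 genes (0%) at an adjusted p of 0.05. The fit with an intensity trend in the variance called 134 genes (1.08%), 0 of them clock genes. At an unadjusted p of 0.05 the limma fit had 1297 genes (10.5%), 642 of them higher (5.18%) and 655 lower (5.29%), and of the 10 these were Cry2 and Tef, both higher. The differences of the 10 ran from -0.70 to 1.47, with 8 above 0 and a median of 0.36, beside a median of -0.02 over all genes. The median of the 10 was 0.19 without bulge basal replicate 1, 0.83 without bulge basal replicate 2 and 0.55 without total epidermis replicate 1. Cry2 and Tef had both bulge basal arrays above both total epidermis arrays, which was so for 18.0% of all genes, and 0 of the 10 had the reverse, against 20.5% of all genes. With 2 arrays a group an exact permutation test cannot go below p = 0.333. RNA was measured in bulk, so fewer cells expressing a gene and less RNA per cell cannot be told apart.

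**Figure D1:**
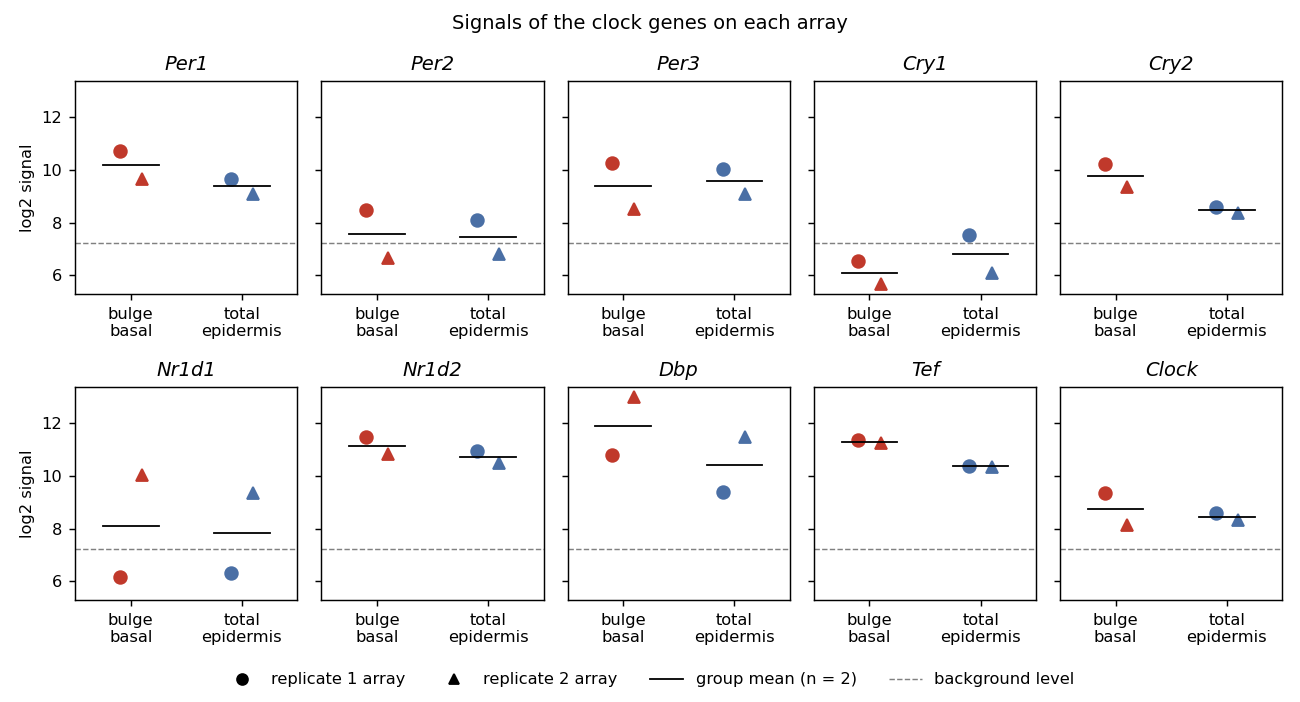
Log2 signal (vertical axis) of each clock gene on each array, bulge basal cells in red and total epidermis in blue. Circles are replicate 1 arrays, triangles replicate 2 arrays, black bars group means and the dashed line the background level of 7.23. Cry2 and Tef separate the populations, while Nr1d1 and Dbp separate the replicate numbers with replicate 2 higher. Per1, Per2, Per3, Nr1d2, Clock and the mostly dim Cry1 separate them with replicate 1 higher.

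The D-box activator genes Tef and Dbp had differences above 0, while that of their relative Hlf, not one of the 10, was -0.92. Among the probe sets that stand for the 10 genes, that of Tef had the smallest spread between replicates. In each sentence of array values below, the replicate 1 array of a group stands before its replicate 2 array. Tef had log2 signals of 11.35 and 11.25 in bulge basal cells, against 10.37 and 10.35 in total epidermis. The arrays of a population were nearly equal and the populations did not overlap. The difference was 0.94 ± 0.37 (SE, 95% interval 0.01 to 1.87), 1.92-fold, with an adjusted p of 0.476 in limma. A further Tef probe set had 10.13 and 9.01 in bulge basal cells, against 8.88 and 7.11 in total epidermis, where 7.11 is below background. Its difference was 1.57, also without overlap, but its replicate 1 arrays were well above its replicate 2 arrays in both populations. The last Tef probe set gave -0.41 but was below background on all 4 arrays. Dbp had 10.80 and 13.00 in bulge basal cells, against 9.38 and 11.48 in total epidermis. Its replicate 2 arrays were far above its replicate 1 arrays in both populations, so the groups overlapped. Its difference was 1.47 ± 1.01 (SE, 95% interval -1.09 to 4.04), with an adjusted p of 0.765 in limma. Compared array by array at the same replicate number, Dbp was 1.43 higher in bulge basal cells at replicate 1 and 1.52 higher at replicate 2. Without bulge basal replicate 2 its difference was 0.37, and without bulge basal replicate 1 it was 2.57. Without total epidermis replicate 1 it was 0.42, and without total epidermis replicate 2 it was 2.53. Its other probe set had 8.04 and 10.99 in bulge basal cells and 7.48 and 8.64 in total epidermis, a difference of 1.45.

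The cryptochromes, which inhibit CLOCK and BMAL1 in the nucleus, had differences of opposite sign. Cry2 had 10.21 and 9.33 in bulge basal cells, against 8.60 and 8.35 in total epidermis. Both bulge basal arrays were above both total epidermis arrays. The difference was 1.29 ± 0.46 (SE, 95% interval 0.12 to 2.47), 2.45-fold, with an adjusted p of 0.416 in limma, and it was 0.85 without bulge basal replicate 1. Cry1 had 6.55 and 5.65 in bulge basal cells, against 7.51 and 6.08 in total epidermis. It was above background only on total epidermis replicate 1, both group means were below background, and no fold is given. Its difference of -0.70 ± 0.64 (SE) had an adjusted p of 0.855 in limma and was 0.02 without total epidermis replicate 1.

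The period genes encode partners of the cryptochromes in that inhibition. Per1, which also responds quickly to outside signals, had 10.70 and 9.64 in bulge basal cells, against 9.65 and 9.09 in total epidermis. Bulge basal replicate 1 stood above the other arrays, and bulge basal replicate 2 lay just under total epidermis replicate 1. The difference was 0.80 ± 0.52 (SE, 95% interval -0.51 to 2.12), with an adjusted p of 0.743 in limma. It was 0.28 without bulge basal replicate 1, 1.33 without bulge basal replicate 2 and 0.52 without total epidermis replicate 2. Per2 had 8.49 and 6.64 in bulge basal cells, against 8.08 and 6.80 in total epidermis. Both replicate 2 arrays were below background, and the difference of 0.13 ± 0.79 (SE) had an adjusted p of 0.985 in limma. Its direction turned to -0.79 without bulge basal replicate 1 and to -0.51 without total epidermis replicate 2. Per3 had 10.25 and 8.52 in bulge basal cells, against 10.04 and 9.10 in total epidermis. The bulge basal arrays held both the highest and the lowest value, and the difference, -0.18 ± 0.71 (SE), had an adjusted p of 0.979 in limma. It turned to 0.68 without bulge basal replicate 2 and to 0.28 without total epidermis replicate 1. The other Per2 probe set and the other 2 of Per3 were below background on all 4 arrays.

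The nuclear receptor genes Nr1d1 and Nr1d2 encode REV-ERBα and REV-ERBβ, which repress Arntl. Nr1d1 had 6.15 and 10.05 in bulge basal cells, against 6.30 and 9.36 in total epidermis. Both replicate 1 arrays were below background and both replicate 2 arrays well above it, so the populations overlapped over nearly the whole range. The difference was 0.27 ± 1.58 (SE, 95% interval -3.73 to 4.27), the widest interval of the 10 genes, with an adjusted p of 0.985 in limma. It turned to -1.68 without bulge basal replicate 2 and to -1.26 without total epidermis replicate 1. Nr1d2 had 11.48 and 10.82 in bulge basal cells, against 10.94 and 10.48 in total epidermis. Bulge basal replicate 2 lay just under total epidermis replicate 1, and the difference was 0.44 ± 0.44 (SE, 95% interval -0.68 to 1.56) with an adjusted p of 0.874 in limma. It was 0.11 without bulge basal replicate 1, 0.77 without bulge basal replicate 2, 0.67 without total epidermis replicate 1 and 0.21 without total epidermis replicate 2. Its other probe set was below background on all 4 arrays.

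Clock, the activating partner of BMAL1, had 9.34 and 8.14 in bulge basal cells, against 8.58 and 8.34 in total epidermis. The bulge basal arrays lay on either side of both total epidermis arrays. The difference was 0.28 ± 0.53 (SE, 95% interval -1.05 to 1.62), with an adjusted p of 0.949 in limma, and it was -0.32 without bulge basal replicate 1. A further Clock probe set was above background on 1 array and gave a difference of 0.04.

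**Figure D2:**
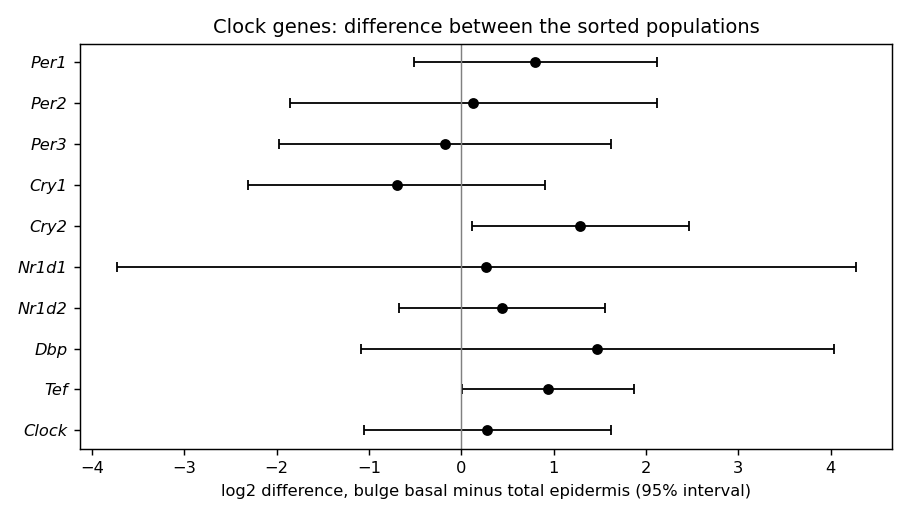
Log2 difference, bulge basal minus total epidermis (horizontal axis), for each clock gene, with points for the limma estimate and bars for its 95% interval. The intervals of Cry2 (0.12 to 2.47) and Tef (0.01 to 1.87) lie above 0 before adjustment, and that of Nr1d1 is the widest.

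For Per2, Per3, Nr1d1, Nr1d2 and Dbp the 2 arrays of each population differed by more than the population means did, and by the same sign in both populations. The values of Cry1 did so too, but both its bulge basal arrays were below background, so its sign there is not a measured one. For Per1, Cry2, Tef and Clock the sign was also the same in both populations. This was described by the replicate number of the titles after the values had been seen, and no test is given. The labels do not say what the number stands for. Such agreement was not confined to clock genes. Over the 7249 genes above background in a group, replicate differences correlated between the populations at r = 0.579. The shares of all genes with such replicate differences were not computed, so the clock genes cannot be judged against them here. Taken as replicate 1 minus replicate 2, Nr1d1 differed by -3.91 in bulge basal cells and -3.06 in total epidermis. Its replicate 1 arrays were below background, so Nr1d1 was at least 5.57-fold higher on the replicate 2 arrays. Dbp differed by -2.20 in bulge basal cells and -2.11 in total epidermis, 4.45-fold higher on the replicate 2 arrays. Genes were ranked by the smaller of their differences in the 2 populations, where both were below 0. By that measure 5 of 12393 genes had a difference at least as large as that of Nr1d1 and 30 one at least as large as that of Dbp, each count including the gene itself. With values raised to at least the background level these counts were 2 and 3.

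The period genes went the other way. Per2, below background on both replicate 2 arrays, was at least 2.08-fold higher on the replicate 1 arrays. Per3 differed by 1.73 in bulge basal cells and 0.94 in total epidermis. Per1 differed by 1.05 in bulge basal cells and 0.56 in total epidermis. These shifts were less rare than those of Nr1d1 and Dbp. By the same measure, with both differences above 0, 205 genes had one at least as large as that of Per2. For Per3 the count was 490 and for Per1 it was 1392. With values raised to background the counts were 208 for Per2, 140 for Per3 and 585 for Per1. Both replicate 1 arrays were above both replicate 2 arrays for 6 of the 10 genes (Per1, Per2, Per3, Cry1, Nr1d2 and Clock), which was so for 25.7% of all genes. Cry1 was below background on 3 of the 4 arrays, so its order there is not a measured one. The reverse held for Nr1d1 and Dbp, and for 16.7% of all genes. Whether the D-box letters printed above have any part in these values was not tested. Tef had replicate differences of 0.10 in bulge basal cells and 0.03 in total epidermis on its probe set with the greatest mean signal. Its further probe set had larger ones, with replicate 1 higher in both populations. Within replicate numbers, 5 genes were higher in bulge basal cells at both numbers (Per1, Cry2, Nr1d2, Dbp and Tef), against 28.5% of all genes, and 1 was lower at both (Cry1), against 31.0%.

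**Figure D3:**
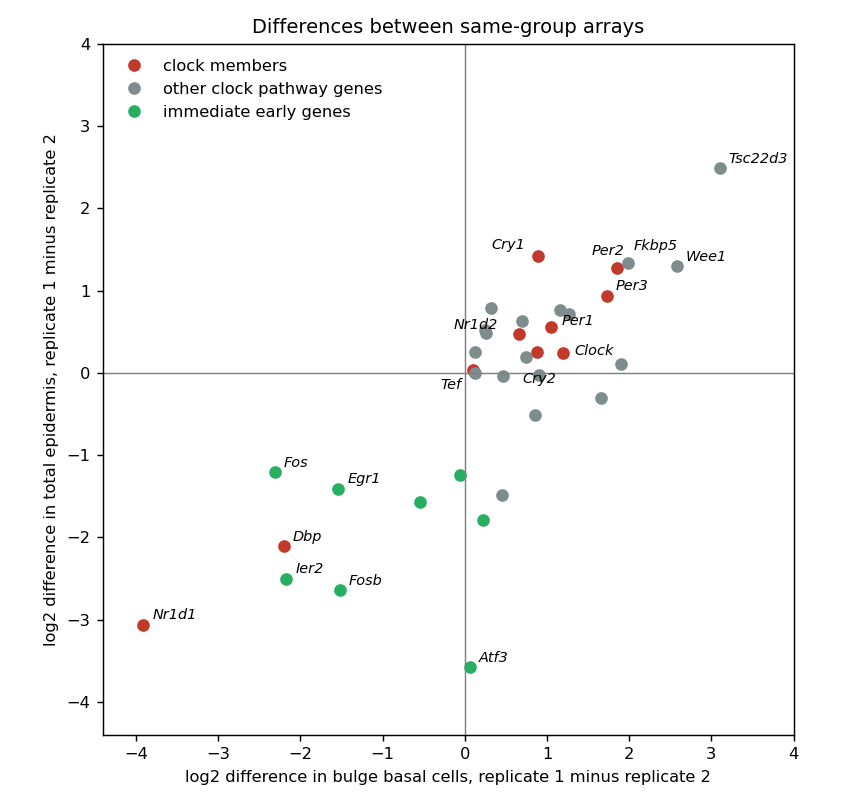
Log2 difference of replicate 1 minus replicate 2 in bulge basal cells (horizontal axis) and in total epidermis (vertical axis), 1 point a gene. Clock genes are red, other clock pathway genes above background in a group grey and immediate early genes green. Nr1d1 and Dbp lie at the lower left and the period genes at the upper right.

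Of the 22 other clock pathway genes measured, 7 had both replicate 1 arrays above both replicate 2 arrays, 0 the reverse and 15 overlapped, against 25.7% and 16.7% of all genes without overlap. Of the 7, Bhlhe41 was below background on all 4 arrays. Tsc22d3, which glucocorticoids induce, differed by 3.10 in bulge basal cells and 2.49 in total epidermis, and by the same measure with both differences above 0, 21 genes, itself included, had one at least as large, or 1 with values raised to background. Fkbp5, also induced by glucocorticoids, differed by 1.99 in bulge basal cells and 1.34 in total epidermis. Wee1, a cell cycle kinase gene under clock control, differed by 2.58 in bulge basal cells and 1.30 in total epidermis, although its replicate 1 and 2 arrays overlapped across populations. Of 8 immediate early genes, which respond to tissue handling among other signals, 5 had both replicate 2 arrays above both replicate 1 arrays. The reverse held for 0 of the 8, and the shares of all genes were 16.7% and 25.7%. Of the 5, Junb was above background only on total epidermis replicate 2, so its order is not a measured one. Ier2, another of the 5, differed by -2.17 in bulge basal cells and -2.50 in total epidermis. The ratio of 3′ to 5′ control probe signal for β-actin, a measure of RNA and amplification quality, was 5.65 and 10.90 in bulge basal cells and 5.14 and 7.96 in total epidermis. The same ratio for Gapdh was 15.79 and 10.33 in bulge basal cells and 12.23 and 17.05 in total epidermis. The part of these measures in the clock gene values was not tested.

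Of the 27 other clock pathway genes considered, 22 were measured and 18 were above background in a group. None of the 22 passed the limma test (0 higher and 0 lower) or the fit with an intensity trend, while 2 higher and 2 lower had an unadjusted p under 0.05 in limma, against 5.18% and 5.29% of all genes. Their median difference was -0.17. Both bulge basal arrays were above both total epidermis arrays for 4 genes and below them for 6, against 18.0% and 20.5% of all genes. Of the 4, Npas2 and Btrc were below background on all 4 arrays. Of the 6, Pdk4 was above background only on total epidermis replicate 1.

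Among the loop factors, Arntl, whose product is the partner of CLOCK, had 8.86 and 8.61 in bulge basal cells, against 9.31 and 8.79 in total epidermis, and the groups overlapped. Bhlhe40, a repressor that competes at E-boxes, had 8.71 and 8.26 in bulge basal cells, against 9.60 and 11.08 in total epidermis. It differed by -1.85 ± 0.60 (SE), and limma gave an adjusted p of 0.353. Nfil3, the D-box repressor, had 9.21 and 7.30 in bulge basal cells, against 6.45 and 6.33 in total epidermis. It was below background on both total epidermis arrays, so its bulge basal mean was at least 2.04-fold higher, with an adjusted p of 0.443 in limma. Bulge basal replicate 2 lay just above background, so the bound rests mainly on replicate 1. Hlf, the relative of Dbp and Tef, had a difference of -0.92, and Rora, an activator at ROR elements, one of -1.02, both without overlap and with adjusted p-values of 0.610 and 0.670 in limma.

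Among modifiers of clock proteins, Usp2, a deubiquitinase gene with rhythmic expression, had 9.43 and 9.17 in bulge basal cells, against 7.92 and 7.43 in total epidermis. Its difference of 1.63 ± 0.40 (SE) did not overlap and had an adjusted p of 0.223 in limma. Timeless, which in mammals also acts at replication forks, was below background on both bulge basal arrays and at least 1.78-fold lower there, with an adjusted p of 0.237 in limma. The kinase genes Csnk1d, Csnk1e and Gsk3b, the ubiquitin ligase gene Fbxw11 and the CLOCK inhibitor gene Cipc had differences between -0.53 and 0.21, all with overlap. Among outputs, Wee1 had 10.71 and 8.13 in bulge basal cells, against 12.12 and 10.81 in total epidermis, which is -2.05 ± 0.96 (SE) for the difference and 0.587 for the adjusted p in limma. Nampt, Noct, Klf9, Tsc22d3 and Fkbp5 had differences between -0.78 and 0.07, all with overlap.

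**Figure D4:**
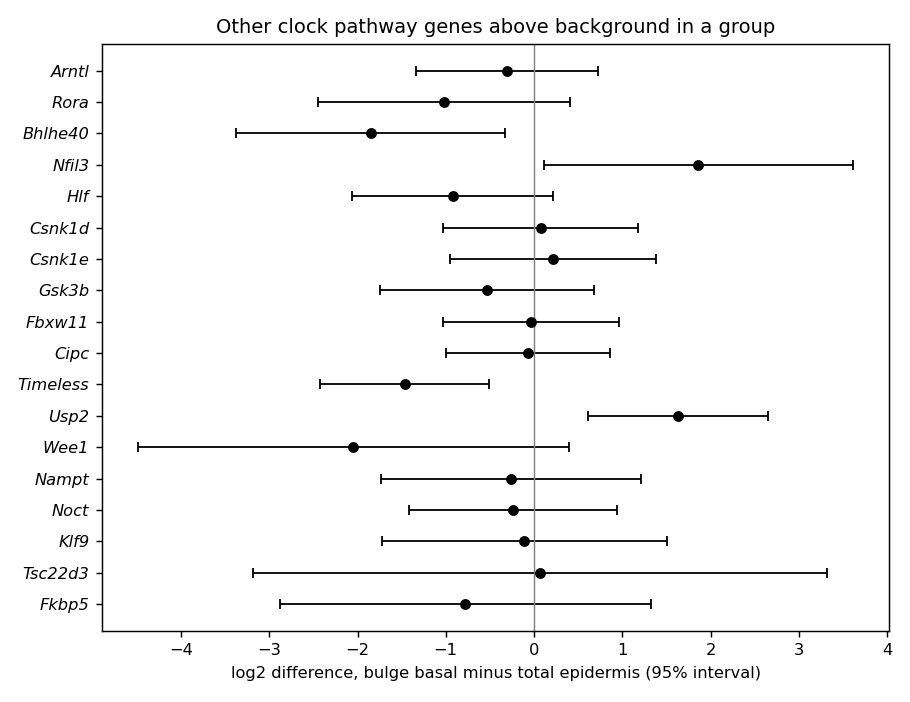
Log2 difference, bulge basal minus total epidermis (horizontal axis), for the 18 other clock pathway genes above background in a group, with the limma estimate and its 95% interval. Usp2 and Nfil3 lie to the right of 0 and Bhlhe40 and Timeless to the left, none with an adjusted p under the threshold.

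Markers of some other cell types differed between the populations on the same arrays. All 8 leukocyte markers were lower in bulge basal cells without overlap, with a summed signal of 1062 to 1493 there and 10454 to 12516 in total epidermis, and Ptprc, Cd3e and Cd3g were below background on both bulge basal arrays. All 3 measured melanocyte markers were lower, with a summed signal of 559 to 681 in bulge basal cells and 1362 to 1450 in total epidermis. Of 6 measured cell cycle genes 5 were lower without overlap, with a summed signal of 3429 to 4145 in bulge basal cells and 7516 to 11082 in total epidermis. Of 5 fibroblast markers Col1a2 alone was higher without overlap, with 11.91 and 10.59 in bulge basal cells and 8.42 and 8.16 in total epidermis. It made up most of their summed signal, 1729 to 4293 in bulge basal cells and 498 to 647 in total epidermis. Col1a1 overlapped, and Col3a1, Pdgfra and Lum were below background on all 4 arrays. The 4 infundibulum and isthmus markers were lower without overlap, with a summed signal of 4833 to 5375 in bulge basal cells and 27626 to 31582 in total epidermis. Of 4 suprabasal markers 2 were lower without overlap, with a summed signal of 20956 to 52251 in bulge basal cells and 35012 to 53628 in total epidermis. Of these 2, Krt1 had 9.45 and 10.13 in bulge basal cells and 13.03 and 13.17 in total epidermis. Ivl, the other, was below background on all 4 arrays. Krt10 and Lor overlapped. The 4 endothelial markers summed to 249 to 310 in bulge basal cells and 265 to 380 in total epidermis, and 3 were below background on all 4 arrays. Their part in the clock gene differences was not tested.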

How the data were processed

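The authors deposited 1 intensity per probe set and array, not log-transformed, whose mean without the top and bottom 2% of values is 500.0 on every array. The tools in the submitters' processing notes are RMA, affy 1.36, R 2.15.1 and GCOS, and which of them made these values is not given in the sources used here. According to the labels' protocols, cDNA was made from 200 ng of RNA with an oligo-dT T7 primer and amplified, which favours the 3′ end of transcripts.

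Groups were taken from the sample titles, as all 4 samples carry the same cell type label. Log2 of the intensity was taken. Of 22690 probe sets, 64 were controls, 691 had several symbols and 1555 had none, and these were left out. The other 20380 had 1 symbol, 20351 of them updated by Entrez ID through the GRCm38.p6 RefSeq gene table. Probe sets ending in _s_at can match several transcripts.

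Tests were run in limma 3.58.1 under R 4.3.3 with lmFit and eBayes, group being the single term, two-sided, with Benjamini-Hochberg adjustment over 12393 genes and a threshold of 0.05. The fit was tested on simulated data. A gene below background on 1 or both arrays of its dimmer group has a bound in place of a fold. The text names all 10 clock genes, the other clock pathway genes, the gate genes, immediate early genes and marker lists. Values are given only for other clock pathway genes above background in a group. The members and lists were chosen with earlier results of these data known. The number of arrays limits the precision.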

Additional observations from a re-analysis of the deposited data

How the results depend on the processing

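Under all settings tried with arrays complete, the clock genes tested kept the direction of their differences (Cry1 was too dim for the filters). The number of genes called over the whole array was 134 with an intensity trend, 196 among genes above background on 2 arrays, 37 with log2 of signal plus 32, 5 with values raised to background and 175 with trend and filter together, against 0 in the limma fit, and 0 clock genes were called in any of these. Median centring, quantile normalization, robust hyperparameters and other probe set rules called 0 genes. Leaving out each array in turn called 0 genes. It gave 3 to 7 clock genes higher and 0 to 4 lower without overlap, where 1 array stands alone on a side. The shares of all genes without overlap under these settings were not computed, so these counts cannot be judged against them. The median difference of the other clock pathway genes ran from -0.74 to 0.15 in these fits. Ranges were -0.79 to 1.06 for Per2, -0.32 to 0.88 for Clock, -1.05 to 0.68 for Per3, -1.68 to 2.22 for Nr1d1 and -1.41 to 0.02 for Cry1. In these fits the lone array is assumed to vary like the other group.

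Both populations have replicates 1 and 2, and replicate deviations correlated between them at r = 0.579 across 7249 genes above background, which are not independent replicates. With the replicate number as a block, limma called 0 genes, 0 of them clock genes, and Dbp had 1.47 ± 0.35 (SE) with an adjusted p of 0.157. Trend and block were also used together, a setting chosen after seeing the data that leaves 1 residual degree of freedom a gene. That setting called 917 of 12393 genes, 467 higher and 450 lower. These included 2 of the 10 clock genes, Cry2 (1.29, adjusted p = 0.0228) and Dbp (1.47, adjusted p = 0.00743). They also included 5 of the 22 other clock pathway genes, of which Usp2 and Nfil3 were higher and Bhlhe40, Timeless and Wee1 lower. Over all settings the adjusted p ran to 0.999 for Cry2 and to 1 for Dbp. The cause of these shifts was not tested.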
